A study of Mus musculus with 2 samples.

Results

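The 10 immediate early genes Fos, Fosb, Fosl2, Jun, Junb, Jund, Egr1, Egr3, Nr4a1 and Arc were followed in nuclei of the mouse subventricular zone, the germinal layer beside the lateral ventricles. They were the rows of both count matrices that carry these symbols, and all 10 were found among 32285 genes. One library came from MIP mice (modeled intestinal perforation) and 1 from control mice. Pups were assigned on postnatal day 5 and the zone was dissected after 48 h (postnatal day 7), snap frozen and used for isolation of nuclei. The sources used here give neither the strain, nor the number of animals per library, nor how the perforation was modeled. On GRCm38 (mm10) the Fos family genes lie apart, Fos at chr12:85473890-85477273, Fosb at chr7:19302696-19310051 and Fosl2 at chr5:32135801-32157842, as do the Jun family genes, Jun at chr4:95049034-95052222, Junb at chr8:84974484-84978718 and Jund at chr8:70698949-70700616. Egr3 lies at chr14:70077203-70082614, and Nr4a1 and Arc share a chromosome, Nr4a1 at chr15:101254269-101274795 and Arc at chr15:74669083-74672570. All 10 are annotated as protein coding.

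Immediate early genes are transcribed within minutes of a stimulus from factors already present in the cell, and their messages decay quickly. Fos and Jun family proteins pair to form the transcription factor AP-1, the Egr genes encode zinc finger factors, Nr4a1 is an orphan nuclear receptor, and Arc is a synaptic effector. In neurons they are read as markers of recent firing, in glia and fibroblasts as a response to growth factors, injury or mechanical stress, and in dissected tissue they can also respond to handling.

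Promoter sequence is shown for the 4 members whose 250 bases before the RefSeq start (build GRCm38.p6) hold the letters TGACG on either strand, the core of the site bound by the cAMP-responsive factor CREB, since these include Fos and Fosb, the pair with the highest ratios of MIP over Control over all nuclei. Junb and Nr4a1, also shown, stayed within 1.5-fold over all nuclei, with log2 ratios of MIP over Control of 0.18 and 0.13. Sequences run 5′ to 3′ on the gene's strand, and capitals mark TGACG or its reverse complement. They lie at chr12:85473640-85473889 on the plus strand for Fos, chr7:19310046-19310295 on the minus strand for Fosb, chr8:84978749-84978998 on the minus strand for Junb and chr15:101266596-101266845 on the plus strand for Nr4a1.
Fos: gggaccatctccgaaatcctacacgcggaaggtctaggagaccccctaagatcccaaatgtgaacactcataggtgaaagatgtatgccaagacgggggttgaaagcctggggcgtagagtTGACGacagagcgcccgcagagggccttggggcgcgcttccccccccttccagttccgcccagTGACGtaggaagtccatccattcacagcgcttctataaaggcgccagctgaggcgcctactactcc
Fosb: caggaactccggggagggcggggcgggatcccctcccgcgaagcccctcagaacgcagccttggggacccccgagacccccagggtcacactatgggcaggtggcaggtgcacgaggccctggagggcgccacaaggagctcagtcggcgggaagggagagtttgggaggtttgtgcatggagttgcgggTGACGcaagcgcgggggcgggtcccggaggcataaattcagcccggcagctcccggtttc
Junb: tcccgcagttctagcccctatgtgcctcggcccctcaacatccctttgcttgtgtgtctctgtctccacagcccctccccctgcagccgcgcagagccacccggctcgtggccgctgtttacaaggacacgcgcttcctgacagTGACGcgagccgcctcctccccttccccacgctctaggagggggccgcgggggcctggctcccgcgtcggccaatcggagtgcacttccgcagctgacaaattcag
Nr4a1: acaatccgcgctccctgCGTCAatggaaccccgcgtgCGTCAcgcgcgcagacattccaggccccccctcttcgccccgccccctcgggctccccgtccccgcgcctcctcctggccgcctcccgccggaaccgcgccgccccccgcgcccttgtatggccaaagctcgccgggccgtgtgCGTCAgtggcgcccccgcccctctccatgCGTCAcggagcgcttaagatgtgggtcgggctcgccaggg

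RefSeq windows were used for 7 members, the other 3 of them being Fosl2, Jun and Jund. Of the 7, 4 held TGACG, against 17.8% of 32851 windows of the same length. Nr4a1 held 4 matches, which began at positions -233, -213, -69 and -40 relative to the start, and Fos held 2, at -129 and -66. Matches to GCGNGGGCG, the letters bound by Egr proteins, were found in 3 windows, at -50 in Fosb, -79 in Fosl2 and -60 in Nr4a1, against 4.70% of all windows. None overlapped a TGACG match, and the CArG box, the site of serum response factor, was in 0 of the 7 windows and in 1.47% of all. The RefSeq start of Nr4a1 lies at 12577 bases from the GENCODE gene start, inside the gene, that of Fosl2 at 671 and that of Jund at -1210, before the gene. Sequence farther than 250 bases before the start, and any sequence of Egr1, Egr3 and Arc, was not searched, so a site there would not be seen. A match is a description of letters and not of binding.

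The MIP library kept 10916 nuclei with a median of 6014 UMIs (unique molecular identifiers, counts of molecules), and the Control library kept 14563 nuclei with a median of 5643. With 1 library per group no test was possible: intervals are exact 95% Poisson or Clopper-Pearson intervals, which cover counting error alone. Between them the libraries shared 115 barcode sequences. Levels are CPM, a gene's UMIs divided by all UMIs of a class of nuclei on the usual scale, not corrected for gene length, so they are compared between classes and libraries and not between genes. Xist stood at 1.41 CPM in MIP and 1749 in Control, and 4 Y-linked genes at 473 and 0.314, so sex and treatment cannot be told apart. A class carries the name its marker genes resemble. The 10 classes compared had at least 100 nuclei in each library, and their own marker lists differed in summed level by a log2 ratio of MIP over Control of 0.01 for oligodendrocyte precursor-like, 0.24 for astroglia-like and 0.11 for microglia-like nuclei. Clusters of low depth held 715 MIP and 3485 Control nuclei; there Jund stood at 177 and 220 CPM and Egr1 at 50.9 and 71.4, and they enter the values over all nuclei and no class. The median gene had a log2 ratio of -0.20 over all nuclei and from -0.16 to -0.02 within classes, so ratios are read against it.

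Over all nuclei Fos and Fosb were higher in MIP and Jund was lower, while the other 7 members stayed within 1.5-fold. Fos had 508 UMIs in MIP and 304 in Control, or 6.11 and 2.65 CPM, a log2 ratio of 1.21 (0.998 to 1.42). Fosb had 206 and 125 UMIs, or 2.48 and 1.09 CPM, a log2 ratio of 1.19 (0.86 to 1.52). Jund, the Jun family gene with the steadiest expression in most tissues, had 30.4 CPM in MIP and 48.4 in Control, a log2 ratio of -0.67 (-0.74 to -0.60). Under TMM scaling (trimmed mean of M values), which puts the median gene at -0.03, the ratio of Jund was -0.49, within 1.5-fold. The clusters of low depth held 4.27% of the Jund UMIs in MIP and 16.4% in Control. Counted at 1.5-fold among genes with at least 20 UMIs over both libraries, 2 of 10 members were higher, against 2.88% of 22684 genes, and 1 of 10 was lower, against 20.8%. The other ratios ran from -0.44 for Egr3 to 0.18 for Junb, and the summed level of the 10 was 123 in MIP and 140 in Control.

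A small class resembling leptomeningeal fibroblasts, the cells of the membranes on the brain surface, held a large part of the Fos and Fosb UMIs. It made up 111 MIP nuclei (1.02%) and 56 Control nuclei (0.385%), and the Control number is under the 100 asked of a compared class. It held 32.1% of the MIP library's Fos UMIs and 11.5% of the Control library's, and 45.1% and 19.2% of the Fosb UMIs. Without it, the log2 ratio over all nuclei was 0.83 for Fos and 0.63 for Fosb. Summed over all other nuclei, both genes therefore stayed higher in MIP by more than 1.5-fold, with a smaller ratio, Fosb only narrowly. The Fosb log2 ratio differed between classes, with 2.10 in excitatory neuron-like and -0.05 in spiny projection neuron-like nuclei. The spiny projection value depended on the depth of the nuclei used, as given below.

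Within these fibroblast-like nuclei all 7 members with at least 20 UMIs were past 1.5-fold higher in MIP, against 15.5% of 8220 genes, and 0 were lower, against 18.7%. Fos stood at 270 CPM in MIP (230 to 315) and 80.0 in Control (55.7 to 111), a log2 ratio of 1.76. Junb, a Jun protein that often restrains Jun, stood at 116 and 18.3, a log2 ratio of 2.67 (1.61 to 3.93) on 70 and 8 UMIs. Egr1 stood at 168 and 57.1, a log2 ratio of 1.55 (0.91 to 2.25). Their MIP and Control intervals did not overlap. Fosb stood at 154 and 54.8 with a log2 ratio of 1.49, Jund at 224 and 110 with 1.03, and Jun, the main partner of Fos, at 255 and 144 with 0.83. Nr4a1 had only 17 and 7 UMIs, and the interval of its ratio, -0.53 to 2.33, included 0. Fosl2 had 14 and 5 UMIs, Egr3 0 and 2, and Arc 0 and 1, all under the count minimum. Jund was thus higher in MIP in this class and lower over all nuclei. Over 8 other settings all 7 kept a positive ratio, but 3 of them came within 1.5-fold. The lowest values were 0.39 for Jun, among nuclei of 3000 to 8000 UMIs, 0.36 for Jund, with classes from marker scores, and 0.026 for Nr4a1, after thinning each nucleus to 2000 UMIs.

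The 2 fibroblast-like clusters differed in how far apart the libraries stood. In the one led by Ptgds and Slc6a13 (72 MIP and 35 Control nuclei) Fos stood at 267 CPM in MIP (216 to 325) and 40.9 in Control (21.1 to 71.4). In the one led by Bnc2 and Tbx15 (39 and 21 nuclei) it stood at 276 (214 to 351) and 160 (101 to 240), with intervals that overlapped. Fosb UMIs were gathered in few nuclei, 51.6% of them in the 5 highest MIP nuclei and 66.7% in the 5 highest Control nuclei. For Fos the same shares were 22.7% and 57.1%. The fibroblast marker list stood at 7548 CPM in MIP and 9069 in Control, and the microglia list at 163 and 324. Markers of astroglia stood higher than those of microglia, at 4486 and 5068 CPM. Markers of spiny projection neurons stood at 3503 and 2927 and were higher in MIP, a log2 ratio of 0.26 (0.16 to 0.36). The mitochondrial share of UMIs was 0.686% in MIP and 1.03% in Control. Their part in the result was not tested.

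**Figure D1:**
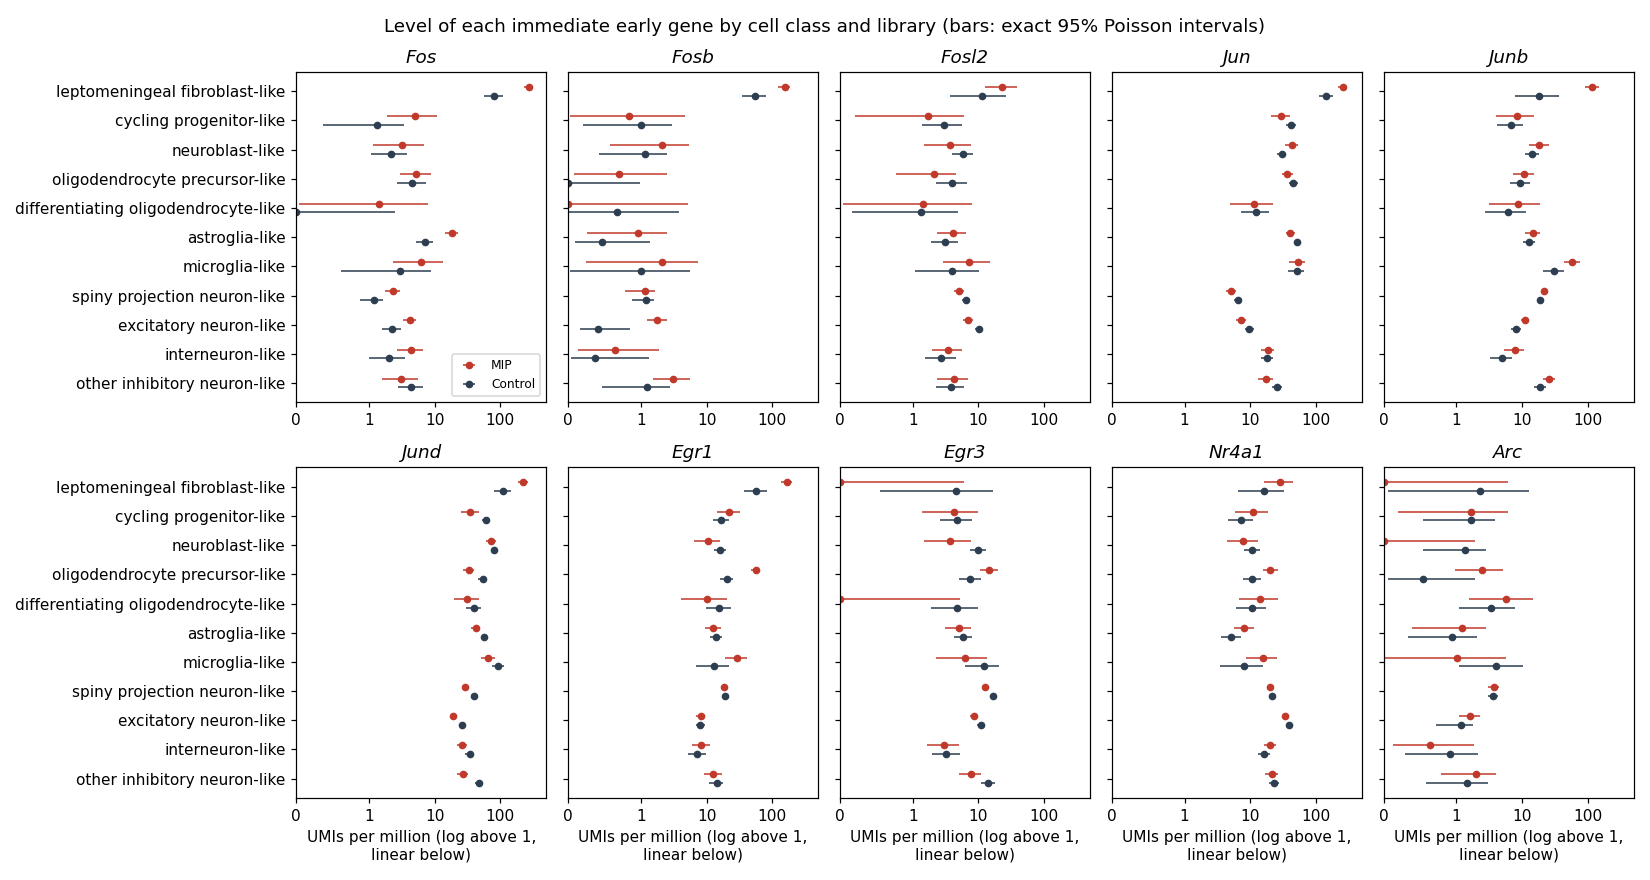
Level of each member in 11 classes, in CPM (log scale above 1, linear below), MIP in red above Control in dark blue, with exact 95% Poisson intervals. The fibroblast-like row stands farthest right for Fos, Fosb, Jun, Jund and Egr1, with Fos at 270 in MIP and 80.0 in Control.

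Ependymal-like nuclei, the ciliated lining of the ventricle, numbered only 26 in MIP and 48 in Control. Fos had 21 and 2 UMIs there, or 73.4 (45.5 to 112) and 4.41 (0.534 to 15.9) CPM. Fosl2, a Fos family member with slower kinetics, had 13 and 1 UMIs, and Nr4a1 had 11 and 4. Jun (9 and 17 UMIs) and Jund (13 and 24) had ratios whose intervals included 0. A further cluster led by the border macrophage genes Mrc1, F13a1 and Cd163 held 24 MIP and 23 Control nuclei, with Fos at 110 and 84.4 CPM and Jun at 346 and 348. Their intervals overlapped between the libraries.

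Among the 10 compared classes, Fos was highest in astroglia-like nuclei, with 75 UMIs in MIP and 45 in Control. That is 18.0 CPM (14.2 to 22.6) in MIP and 6.998 (5.10 to 9.36) in Control, a log2 ratio of 1.36 (0.81 to 1.93). The difference was larger in the cluster led by Veph1 and Slco1c1, where Fos stood at 42.4 (30.2 to 58.0) in MIP and 6.14 (3.17 to 10.7) in Control. In the other astroglia-like cluster, led by Tnc and Slc1a3, it stood at 11.1 and 7.38, with overlapping intervals. In the Veph1 cluster Nr4a1 was also higher in MIP, at 14.1 and 3.07, and Egr1 was lower, at 6.53 (2.39 to 14.2) and 17.9 (12.5 to 24.9). The fibroblast marker list in astroglia-like nuclei stood at 101 and 90.7 CPM.

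Fos had a positive ratio in 3 of the 4 neuron classes. Spiny projection neuron-like nuclei, which resemble the output neurons of the striatum, had 2.28 CPM in MIP and 1.202 in Control, a log2 ratio of 0.92 (0.34 to 1.51). Excitatory neuron-like nuclei had 4.16 and 2.24, a log2 ratio of 0.89 (0.32 to 1.49), which turned to -1.81 among nuclei of 3000 to 8000 UMIs, where the interval included 0. Interneuron-like nuclei had 4.27 and 1.99, with an interval from -0.03 to 2.31. In the Tshz1 and Foxp2 inhibitory neuron-like nuclei the ratio had the opposite sign, -0.50, with an interval that included 0 (11 and 21 UMIs). In progenitor, neuroblast, oligodendrocyte precursor and microglia-like nuclei Fos had 15 UMIs or fewer in MIP and 17 or fewer in Control, and a difference was not detectable at this depth. Below astroglia in MIP the classes ran from microglia-like nuclei (6.22) down to spiny projection neuron-like (2.28) and differentiating oligodendrocyte-like nuclei (1.43), and neighbours in that order had intervals that overlapped.

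Fosb, which like Fos acts in dimers with Jun proteins, reached 20 UMIs in only 2 of the compared classes. In excitatory neuron-like nuclei it had 34 UMIs in MIP and 7 in Control. That is 1.77 (1.22 to 2.47) and 0.412 (0.166 to 0.850) CPM, a log2 ratio of 2.10 (0.90 to 3.52). In spiny projection neuron-like nuclei it stood at 1.16 and 1.202, with intervals that overlapped almost in full. That log2 ratio of -0.05 became -0.89 after thinning to 2000 UMIs and 1.26 among nuclei of 3000 to 8000 UMIs. The excitatory ratio ran from 1.65 to 2.26 over 6 other settings. In MIP the 5 highest nuclei held 38.2% of the Fosb UMIs of the excitatory class and 40% of those of the spiny projection class. Fosl2 went the other way in excitatory neuron-like nuclei, at 6.87 and 10.2 CPM, a log2 ratio of -0.57 (-0.91 to -0.23), within 1.5-fold. In oligodendrocyte precursor-like and neuroblast-like nuclei Fosl2 was past 1.5-fold lower, on 6 and 15 and on 7 and 30 UMIs, with intervals that included 0; the neuroblast ratio was 0.73 among nuclei of 3000 to 8000 UMIs.

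Jun was higher in microglia-like, astroglia-like and precursor nuclei than in the projection neurons of both libraries. In MIP it stood at 52.9 CPM in microglia-like, 43.1 in neuroblast-like, 40.8 in astroglia-like, 36.7 in oligodendrocyte precursor-like and 29.4 in cycling progenitor-like nuclei, and in Control at 50.9, 30.1, 51.2, 45.6 and 42.1 in the same order. Interneuron-like nuclei had 18.4 in MIP and 18.1 in Control, excitatory neuron-like nuclei 7.33 and 9.72, and spiny projection neuron-like nuclei 5.06 and 6.51. The intervals of the last pair of classes lay below those of the first 5 in each library. Between libraries Jun stayed within 1.5-fold in all 10 compared classes; its ratio was 0.52 in neuroblasts (0.11 to 0.91) and -0.57 (-1.03 to -0.11) in the Tshz1 and Foxp2 class. The neuroblast ratio was -0.25 among nuclei of 3000 to 8000 UMIs. Junos, which overlaps Jun on the opposite strand, had 589 UMIs in MIP and 937 in Control, a log2 ratio of -0.21 beside -0.27 for Jun, and reads of such a pair may be shared, since the sources used here do not state whether strand was used in counting.

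Among the compared classes Junb was highest in microglia-like nuclei, which resemble the immune cells of brain tissue, at 58.0 CPM in MIP (43.8 to 75.4) and 30.9 in Control (21.0 to 43.9). The log2 ratio was 0.91 (0.25 to 1.59), and it ran from 0.76 to 1.07 over 8 other settings. Several marker lists of other classes were lower in MIP microglia-like nuclei, with astroglia markers at 291 CPM in MIP and 525 in Control, neuroblast markers at 798 and 1271 and interneuron markers at 592 and 1048, and their part in the members' ratios was not tested. Among neurons Junb stood at 25.7 and 18.8 in the Tshz1 and Foxp2 class, 21.5 and 18.7 in spiny projection, 10.9 and 8.01 in excitatory and 7.69 and 4.89 in interneuron-like nuclei. Within the spiny projection class the cluster led by Ntn1 and Isl1 had 21.8 (17.6 to 26.7) in MIP and 13.03 (10.4 to 16.1) in Control, while the Drd1 cluster had 21.6 and 19.9 and the Drd2 cluster 21.2 and 19.8. Prdx2, which overlaps Junb on the opposite strand, had 6309 UMIs in MIP and 14246 in Control and a log2 ratio of -0.71 over all nuclei, opposite in sign to the 0.18 of Junb.

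Jund had a negative ratio in all 10 compared classes, between -0.81 and -0.14, and was past 1.5-fold lower in 3 of them. These were the Tshz1 and Foxp2 class (26.6 CPM in MIP and 46.6 in Control, -0.81), cycling progenitor-like nuclei (34.5 and 60.1, -0.80, interval -1.33 to -0.31) and oligodendrocyte precursor-like nuclei (32.8 and 53.4, -0.70, interval -1.07 to -0.34). In spiny projection neuron-like nuclei, where it had the most UMIs (736 and 1514), the ratio was -0.48 (-0.61 to -0.35). In neuroblast-like nuclei, the compared class with the highest Jund in MIP, it stood at 72.5 and 79.9, and the interval of the ratio included 0. The sign held in every compared class under TMM scaling. With each nucleus thinned to 2000 UMIs the ratio was -0.42 in oligodendrocyte precursor-like and -0.55 in cycling progenitor-like nuclei, both within 1.5-fold, and 0.22 (-0.48 to 0.93) in interneuron-like nuclei.

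**Figure D2:**
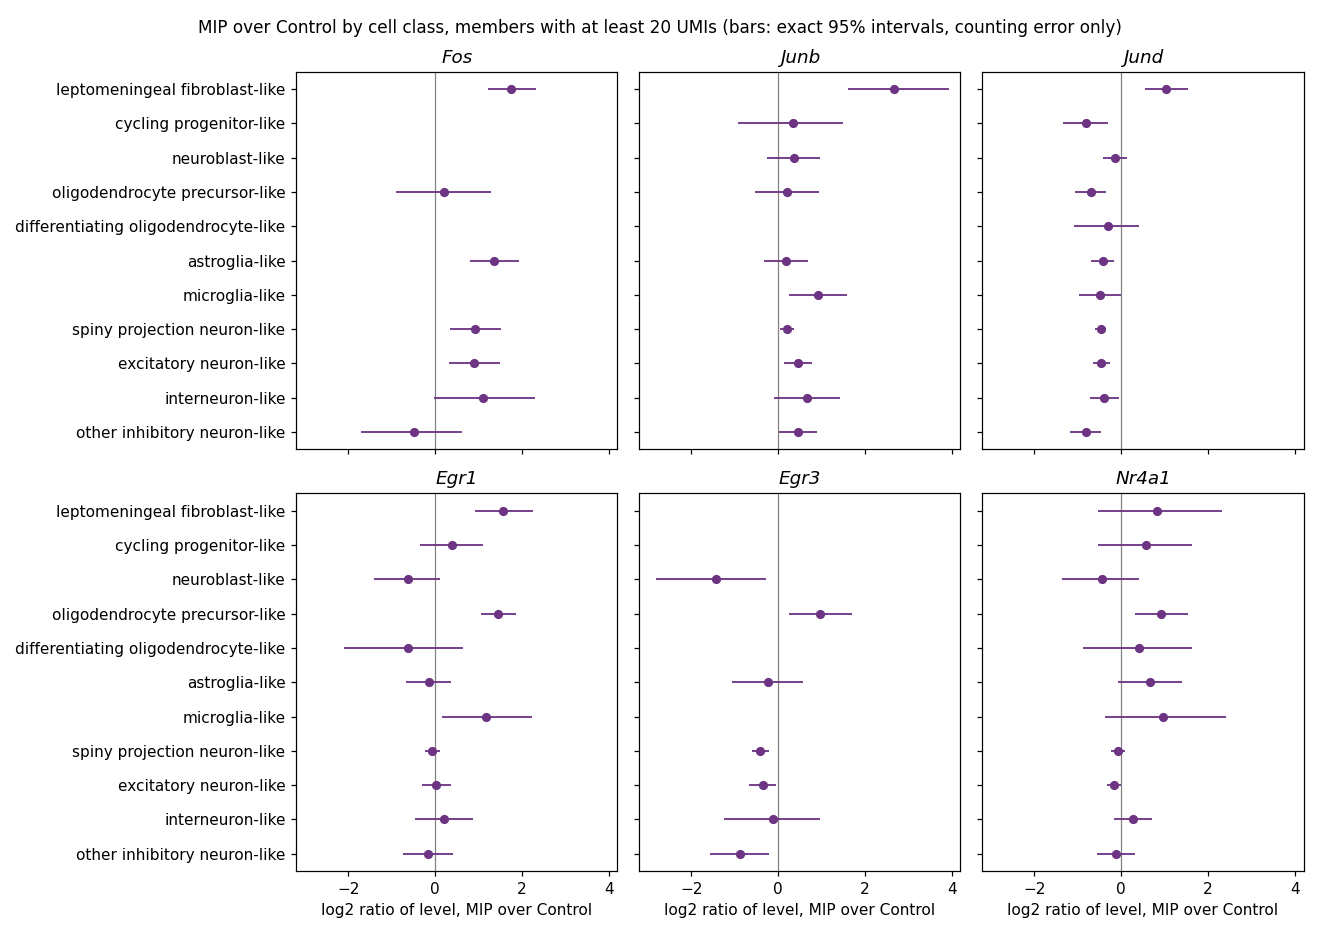
Log2 ratio of the level in MIP over Control for 6 members in 11 classes, with exact 95% intervals that cover counting error only; pairs with fewer than 20 UMIs are not drawn. Jund lies left of 0 in every compared class and right of it in fibroblast-like nuclei, and Egr1 stands at 1.46 in oligodendrocyte precursor-like nuclei.

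Egr1, the founding Egr factor and a common read-out of ERK signalling, had its largest ratio among the compared classes in oligodendrocyte precursor-like nuclei. It had 160 UMIs in 655 MIP nuclei and 76 UMIs in 684 Control nuclei, or 55.9 CPM (47.6 to 65.3) and 20.4 (16.1 to 25.5), which gives a log2 ratio of 1.46 (1.05 to 1.87). After thinning each nucleus to 2000 UMIs, 9.05% of MIP nuclei (6.92 to 11.6) and 4.55% of Control nuclei (3.11 to 6.39) held an Egr1 UMI; unthinned the shares were 20.6% and 9.65%. Egr3, a related factor induced by Egr1 in several tissues, stood at 14.7 and 7.51 CPM there, a log2 ratio of 0.97 (0.24 to 1.71). Nr4a1 stood at 20.3 and 10.7, a log2 ratio of 0.92 (0.31 to 1.54). These were the 3 of 8 measured members higher in this class, against 4.39% of 13360 genes, and 2 of 8 were lower (Jund and Fosl2), against 15.4%. Fos had 15 and 17 UMIs in the same nuclei, or 5.24 and 4.56 CPM with overlapping intervals.

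The cycling progenitor-like cluster that also expressed Pdgfra, the growth factor receptor of oligodendrocyte precursors, had Egr1 at 40.9 CPM in MIP (21.8 to 69.9) and 14.1 in Control (7.31 to 24.7) on 13 and 12 UMIs. The cycling cluster led by Egfr and Top2a had 14.9 and 17.7. In oligodendrocyte precursor-like nuclei the markers of neuroblasts stood at 693 and 1002 CPM and those of spiny projection neurons at 901 and 1088, both lower in MIP, and those of fibroblasts at 42.3 and 44.5. Over 8 other settings the Egr1 ratio ran from 1.11 to 1.55, Egr3 from 0.60 to 1.06 and Nr4a1 from 0.49 to 1.01. The lowest Nr4a1 value, after thinning to 2000 UMIs, was within 1.5-fold, and none of the 3 genes changed sign.

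In neuroblast-like nuclei, the migrating young neurons of this zone, the Egr genes were lower in MIP. Egr3 had 7 UMIs in MIP and 51 in Control, or 3.68 (1.48 to 7.58) and 9.89 (7.36 to 13.01) CPM, a log2 ratio of -1.43 (-2.81 to -0.28). Egr1 stood at 10.5 and 16.1, a ratio of -0.62 (-1.40 to 0.10). Of 7 measured members 0 were higher, against 6.98% of genes, and 3 were lower (Egr1, Egr3 and Fosl2), against 14.4%. Arc had 0 UMIs in MIP, which allows a level of up to 1.58 CPM when the limit of a count of 0 is set at 3 UMIs, and 7 in Control (1.36 CPM). MIP neuroblasts were shallower, with a median of 2432.5 UMIs and 3599 in Control.

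Elsewhere Egr1 was higher in MIP in microglia-like nuclei, at 29.0 (19.3 to 41.9) and 12.98 (6.91 to 22.2) CPM on 28 and 13 UMIs. That ratio of 1.16 was 0.13 when classes were drawn from marker scores. In microglia-like nuclei 3 of 5 measured members were higher (Junb, Egr1 and Nr4a1), against 12.1% of genes, and 0 were lower, against 22%. Nr4a1 had 15 UMIs in MIP and 8 in Control there, an interval from -0.37 to 2.41, and a ratio of 0.22 without doublet removal, within 1.5-fold. Among neurons Egr1 was highest in spiny projection neuron-like nuclei, at 18.1 in MIP and 18.9 in Control, with 19.9 and 20.04 in the Drd1 cluster and 17.0 and 20.2 in the Drd2 cluster. Excitatory and interneuron-like nuclei had 8.22 and 8.33 in MIP and 8.07 and 7.25 in Control, neighbours that overlapped. Egr3 followed the same order among those 3 classes in Control, at 17.0, 10.96 and 3.26, and was lower in MIP at 12.8, 8.58 and 2.99. Its ratios were -0.41 (-0.60 to -0.21), -0.35 (-0.66 to -0.04) and -0.12 (-1.24 to 0.96).

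Nr4a1 was highest among the compared classes in excitatory neuron-like nuclei, at 34.3 CPM in MIP (31.8 to 37.1) and 38.7 in Control (35.8 to 41.7). The Tshz1 and Foxp2 class had 21.5 and 23.2, spiny projection neuron-like nuclei 20.3 and 21.5 and interneuron-like nuclei 19.9 and 16.5, and these 3 overlapped within each library. Astroglia-like nuclei had 8.17 and 5.13, a log2 ratio of 0.67 (-0.06 to 1.41), and microglia-like nuclei 15.5 and 7.99. Within the excitatory class the Tfap2d cluster, the largest, had 34.6 in MIP and 35.5 in Control. The 660 and 656 UMIs of Nr4a1 in excitatory neurons were the largest sums of this gene in any class of the MIP library and the second largest of the Control library, after the 823 UMIs in spiny projection neuron-like nuclei.

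Arc, whose product remodels synapses after activity, had most of its UMIs in spiny projection and excitatory neuron-like nuclei. They held 96 and 31 of its 180 MIP UMIs, and 139 and 20 of its 257 Control UMIs; the clusters of low depth held 4 and 31. Its level in spiny projection neuron-like nuclei was 3.71 CPM in MIP (3.002 to 4.53) and 3.63 in Control (3.05 to 4.29), a log2 ratio of 0.03 (-0.36 to 0.42). In excitatory neuron-like nuclei it was 1.61 and 1.18, and the interval of the ratio, -0.40 to 1.34, included 0. The other 8 compared classes had 7 UMIs or fewer each.

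Over the 10 compared classes, 73 of 100 pairs of a member and a class had at least 20 UMIs. Of these, 13 were past 1.5-fold higher in MIP and 9 lower. Among all genes, the share higher ran from 3.29% to 12.1% over these classes, and the share lower from 13.4% to 22%. In cycling progenitor-like nuclei 0 of 5 members were higher (6.14% of genes) and 1 lower (13.4%), and in differentiating oligodendrocyte-like nuclei 0 of 4 were higher (8.68%) and 1 lower (16.9%). Astroglia-like nuclei had 2 of 8 higher (Fos and Nr4a1; 4.93%) and 0 lower (15.2%), with Nr4a1 at -0.15 after thinning to 2000 UMIs. Among neurons the counts were 1 of 10 higher (3.29%) and 0 lower (16.7%) in spiny projection, 2 of 10 (3.84%) and 0 (17.9%) in excitatory, 2 of 8 (3.62%) and 0 (17.3%) in interneuron-like nuclei, and 0 of 8 (4.36%) and 2 (14.4%) in the Tshz1 and Foxp2 class. In interneuron-like nuclei the higher pair, Fos and Junb, stood at 0.36 and -0.06 after thinning. With so few members, a single gene moves each share widely.

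Precursors, that is cycling progenitor-like, neuroblast-like and oligodendrocyte precursor-like nuclei pooled, were set against neurons, that is spiny projection, excitatory and interneuron-like nuclei. The pools held 1650 and 4801 nuclei in MIP and 2452 and 4491 in Control. Jun was the member farthest on the precursor side, at 37.3 CPM in precursors and 7.19 in neurons in MIP, a log2 ratio of 2.37 (2.13 to 2.62), and at 38.0 and 8.46 in Control, a ratio of 2.17 (1.98 to 2.35). Jund stood at 45.8 and 24.6 in MIP, a ratio of 0.90, and 66.6 and 35.3 in Control, a ratio of 0.92. Nr4a1 was on the neuron side, at 14.4 and 25.7 in MIP, a ratio of -0.83 (-1.16 to -0.51), and 9.85 and 25.8 in Control, a ratio of -1.39 (-1.67 to -1.12). Fosl2 (-1.15 in MIP and -0.65 in Control) and Arc (-0.79 and -1.19) were on the neuron side as well, with an interval for Arc in MIP that included 0. Jun thus had the largest ratio of the 10 members in both libraries with these pools. Against interneuron-like nuclei alone it had 1.02 in MIP and 1.07 in Control. Egr3 was then higher than Jun in both libraries, at 1.60 and 1.26.

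Egr1 was the member whose contrast differed most between libraries. It stood at 34.6 CPM in precursors and 13.4 in neurons in MIP, a log2 ratio of 1.37 (1.14 to 1.60), and at 17.6 and 14.8 in Control, a ratio of 0.25 (0.02 to 0.46). The Control ratio was -0.08 under TMM scaling, -0.11 against spiny projection neuron-like nuclei alone and 1.28 against interneuron-like nuclei alone, while the MIP ratio ran from 0.93 to 2.07 over 12 other settings. In MIP the oligodendrocyte precursor-like nuclei alone had a ratio of 2.06 over neurons, cycling progenitors 0.71 and neuroblasts -0.35. In Control they had 0.46, 0.17 and 0.12. Egr3 stood at 9.07 and 10.2 in MIP, a ratio of -0.18, and 7.83 and 14.04 in Control, a ratio of -0.84 (-1.17 to -0.53).

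Fos had a ratio of 0.51 in MIP, with an interval that included 0, and 0.79 (0.16 to 1.38) in Control. Fosb had -0.19 and -0.26, and Junb -0.34 and -0.41. In MIP 3 of 10 members were higher in precursors (36.8% of genes) and 3 lower (21.9%), and in Control 3 were higher (34.5%) and 4 lower (21.9%). The shares on the precursor side lay near those of all genes. The median gene lay at 0.29 in MIP and 0.26 in Control. Precursors were shallower, with medians of 3139.5 and 4270.5 UMIs in MIP and Control, beside 8874 and 11502 for neurons. Among nuclei of 3000 to 8000 UMIs only, Jun had 2.05 in MIP and 1.54 in Control, and Jund had 0.06 and 0.43.

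**Figure D3:**
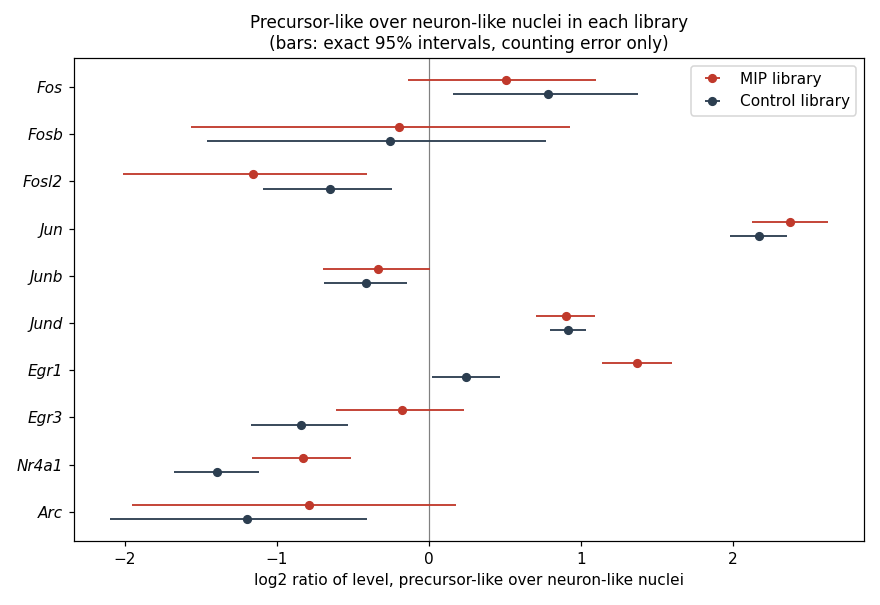
Log2 ratio of each member's level in precursor-like over neuron-like nuclei, MIP in red above Control in dark blue, with exact 95% intervals that cover counting error only. Jun lies at 2.37 and 2.17, and Egr1 at 1.37 in MIP and 0.25 in Control.

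The share of nuclei with a UMI of any member, after thinning each nucleus to 2000 UMIs, was 27.3% in MIP precursors (25.0 to 29.7) and 19.6% in MIP neurons (18.5 to 20.8), and 29.1% (27.3 to 30.9) and 21.5% (20.3 to 22.8) in Control. Thinning left out 227 and 73 shallower nuclei in MIP and 28 and 5 in Control. Unthinned, the shares were 40.7% and 58.2% in MIP and 51.8% and 72.1% in Control, so the order of the pools turned with depth. No class is known to lack these genes, so no background share could be given. Neuroblast-like nuclei had 25.4% in MIP and 31.0% in Control, and the Tshz1 and Foxp2 class 20.6% and 26.2%, both with overlapping intervals.

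Beside the 10 compared classes, members were seen together in the same nucleus most often in fibroblast-like nuclei. After thinning, 48.2% of those in MIP (38.6 to 57.9) and 16.1% in Control (7.62 to 28.3) held UMIs of at least 2 members, and 23.6% and 7.14% held at least 3. In the 10 compared classes at least 2 members were held by 0% to 7.25% of nuclei, the most in microglia-like nuclei. There at least 3 were held by 1.81% in MIP and 1.43% in Control. The summed level of the 10 members was also higher in fibroblast-like nuclei than in the compared classes, at 1239 CPM in MIP and 498 in Control. Its part in these shares was not tested. Ependymal-like nuclei and the border macrophage cluster are not part of this comparison. In MIP fibroblast-like nuclei Fosb was seen in 38.9% of nuclei with Fos (23.1 to 56.5) and in 5.41% of those without it (1.49 to 13.3). Egr1 was seen in 66.7% of nuclei with Junb (43.0 to 85.4) and 22.5% of those without (14.3 to 32.6). In MIP oligodendrocyte precursor-like nuclei Egr3 was seen in 3 of 57 nuclei with Egr1 and 12 of 573 without, with overlapping intervals.

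**Figure D4:**
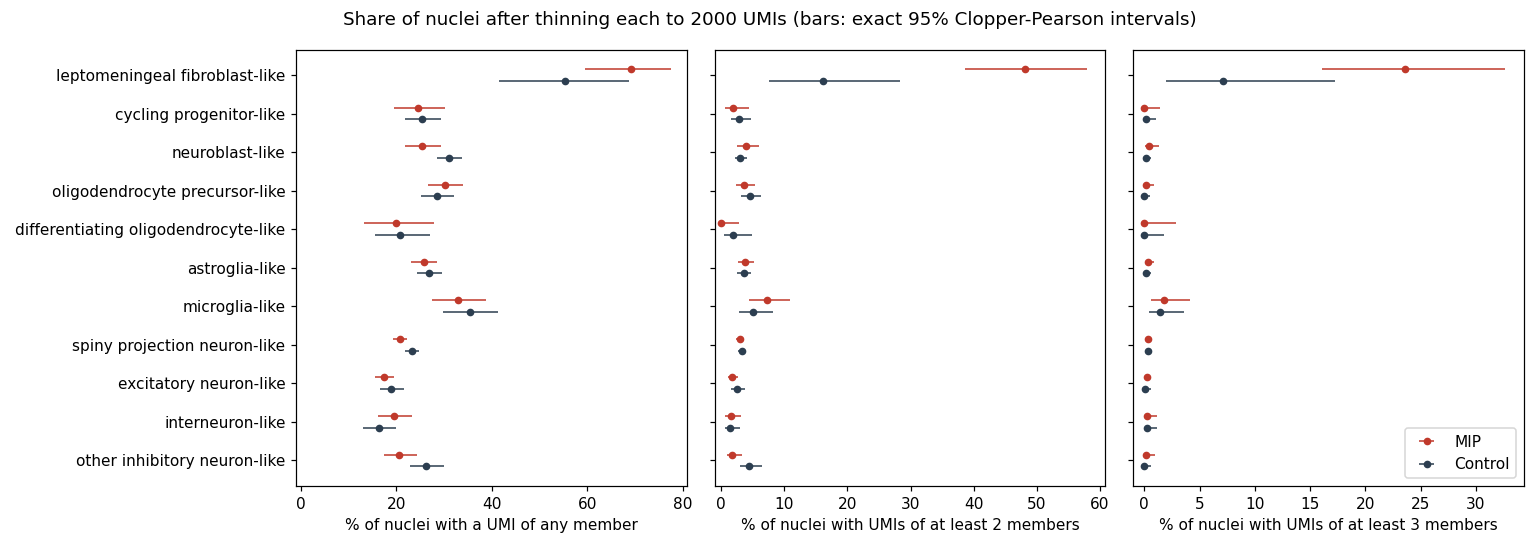
Share of nuclei with UMIs of at least 1, 2 or 3 members after thinning to 2000 UMIs, MIP in red above Control in dark blue, with exact 95% Clopper-Pearson intervals. Fibroblast-like nuclei stand at 48.2% in MIP and 16.1% in Control for at least 2 members, both above the shares of all other classes drawn. The Control interval is wide.

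Other immediate early genes, a list of 31 measured genes, showed 5 higher (2.88% of all genes) and 3 lower (20.8%) over all nuclei. Their median log2 ratio was -0.12, beside -0.20 for all genes. Nr4a2, a sister of Nr4a1, stood at 13.7 CPM in MIP and 6.14 in Control (1.15) and was past 1.5-fold higher in 5 of 10 classes. Per1, a clock gene that also answers acute stimuli, stood at 21.5 and 11.96 (0.84) and was higher in 7 of 10 classes. Ccn1, a secreted matrix protein, stood at 3.78 and 2.04 (0.89). Ier5 was lower at 6.41 and 12.3 (-0.94), lower in 6 of 10 classes, and Myc was lower at 2.33 and 3.85 (-0.72). Mcl1 stood at 21.3 and 29.8 (-0.49).

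In oligodendrocyte precursor-like nuclei 6 of 22 measured genes of that list were higher (4.39% of all genes) and 2 were lower (15.4%). The median ratio was 0.20, beside -0.10 for all genes. Klf10, a zinc finger gene induced by growth factors, had 202 UMIs in MIP and 69 in Control, or 70.6 and 18.5 CPM, a log2 ratio of 1.93 (1.53 to 2.35). Trib1, a pseudokinase gene, stood at 27.6 and 10.7 (1.36), and Per1 at 26.2 and 9.12 (1.52). Nab2, a corepressor of Egr proteins that Egr1 itself induces, stood at 13.98 and 4.02 there, a ratio of 1.80 (0.91 to 2.76), and at 2.10 and 7.95 in neuroblast-like nuclei, a ratio of -1.92 (-3.86 to -0.45). Egr4 was lower in neuroblast-like nuclei as well, at 3.15 and 10.1 (-1.68). Klf10, Trib1, Nab2 and Egr4 were chosen after their values were seen.

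In astroglia-like nuclei 6 of 23 were higher (4.93% of all genes), 0 were lower (15.2%) and the median ratio was -0.07. Nr4a3 stood at 13.5 CPM in MIP and 2.49 in Control (2.43, interval 1.61 to 3.34), Ccn1 at 24.5 and 9.33 (1.39) and Klf4 at 5.28 and 1.56 (1.76). In fibroblast-like nuclei 7 of 16 were higher (15.5% of all genes) and 1 lower (18.7%). Among them Ier2 stood at 74.6 and 20.6 (1.86), Ccn1 at 163 and 77.7 (1.06) and Nr4a2 at 38.1 and 13.7 (1.48). Gadd45b was lower at 9.95 and 34.3 (-1.78). In excitatory neuron-like nuclei Nr4a2 stood at 42.8 and 20.2 (1.09), while Nr4a3 was lower at 21.0 and 33.2 (-0.66). Nr4a3, Klf4, Ier2 and Gadd45b were likewise chosen after their values were seen. In neuroblast-like nuclei 1 of 18 was higher (6.98% of all genes) and 5 lower (14.4%).

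Feedback inhibitors of the same signals showed 0 of 21 higher and 2 lower over all nuclei, and their median ratio was -0.24. For each list of this paragraph, the shares of all genes over all nuclei were 2.88% higher and 20.8% lower. Rgs2, a regulator of G protein signalling, stood at 18.0 and 33.2 CPM (-0.88) and was lower in 6 of 10 classes, and Dusp4, a MAP kinase phosphatase, stood at 2.33 and 3.54 (-0.60). The highest, Dusp16, Nab1 and Spred2, had ratios of 0.31, 0.23 and 0.09. Upstream factors and kinases showed 0 of 29 higher and 0 lower, and their median ratio was 0.07. Mef2c stood at 638 and 522 (0.29) and Elk1 at 9.24 and 12.3 (-0.41). AP-1 dimer partners had 1 of 15 higher, Batf, and 0 lower, with Nfe2l2 at 9.09 and 6.24 (0.54) and Atf4 at 20.9 and 25.4 (-0.28). In microglia-like nuclei 6 of 12 partners were higher (12.1% of all genes) and 1 lower (22%). Batf, an AP-1 factor of immune cells, had 31 UMIs in MIP and 2 in Control (4.01, interval 2.03 to 7.12). Maf was lower at 347 and 694 (-0.999). Late activity-regulated genes had 1 of 19 higher and 2 lower, with Inhba, an activin subunit gene, at 19.7 and 33.4 (-0.76), Vgf at 41.5 and 54.8 (-0.40) and Nptx2 at 6.74 and 4.69 (0.52).

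Heat shock genes, listed as a sign of tissue handling, showed 0 of 15 higher (2.88% of all genes) and 5 lower (20.8%) over all nuclei. Their median ratio was -0.50. Hspe1 stood at 33.1 CPM in MIP and 67.1 in Control (-1.02), and Hspa8 at 223 and 349 (-0.65). In fibroblast-like nuclei 2 of 11 were higher (15.5% of all genes), 2 were lower (18.7%) and the median ratio was -0.12. In oligodendrocyte precursor-like nuclei 0 of 11 were higher (4.39%) and 1 lower (15.4%). In astroglia-like nuclei, where Fos had a ratio of 1.36, 2 of 12 were higher (4.93%) and 0 lower (15.2%). In microglia-like nuclei 0 of 12 were higher (12.1%) and 1 lower (22%). Their part in the members' ratios was not tested.

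The genes whose level was most like the summed level of the 10 members over 46 points, each a cluster in a library with at least 50 nuclei, were Ifitm2 (Pearson's r of 0.89), Itm2c (0.86), Dnajb11 (0.85), Leprot (0.85) and Ptgds (0.84), on log2 of the level plus 10 CPM. The sum followed some members more than others. Its own r was 0.89 with Jund and 0.85 with Egr1, but 0.38 with Egr3, 0.33 with Arc and -0.15 with Nr4a1. The points share libraries and depth, and they include the fibroblast-like cluster in MIP and clusters of low depth, so these are descriptions.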

How the data were processed

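Single-nucleus counts were deposited by the authors as 1 matrix of UMI counts per library, not normalised, made with Cell Ranger 5.0.1 on mm10, per the submitters' processing notes; whether introns or strand were used in counting is not given in the sources used here. MIP had 12366 barcodes and 100823376 UMIs, Control 16964 barcodes and 146730970 UMIs. Barcodes with fewer than 500 genes (204 MIP, 0 Control) or over 5% mitochondrial UMIs (48 MIP, 114 Control) were left out. A simulated-doublet score was computed; since its automatic threshold marked 0 Control barcodes, the top-scoring share (0.8% per 1000 barcodes) was removed, 1198 in MIP and 2287 in Control. Both libraries were clustered together (3000 variable genes, 40 components, 20 neighbours, Leiden resolution 1), and clusters were named from marker lists. Member UMIs were summed by library and class. Exact ratio intervals were run on simulated Poisson counts, the model they assume. That run could not check them against spread between nuclei or animals. The 10 members and all lists were chosen with earlier results of these data known.

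Beside the members, up to 3 genes at each end of each list were named by the interval bound nearest a ratio of 1, with any gene past 1.5-fold in 5 or more of the 10 classes; other genes are marked in the text as chosen later. The alternatives without shared barcodes, with nuclei of 3000 to 8000 UMIs and without fibroblast-like nuclei were chosen after seeing the data. Tools were Python 3.11.15, NumPy 2.4.6, SciPy 1.17.1, pandas 2.3.3, Scanpy 1.11.5, scikit-learn 1.9.0, igraph 0.11.9 and Matplotlib 3.10.9.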

Additional observations from a re-analysis of the deposited data

Results flagged for a closer look

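Egr3 went opposite ways in classes of the same libraries, and the difference was not tested, since each class has 1 library per group. In oligodendrocyte precursor-like nuclei its log2 ratio of MIP over Control was 0.97 (0.24 to 1.71), on 42 and 28 UMIs. In neuroblast-like nuclei it was -1.43 (-2.81 to -0.28), on 7 and 51 UMIs. In the Tshz1 and Foxp2 inhibitory neuron-like nuclei it was -0.88 (-1.58 to -0.21), on 27 and 67 UMIs. This last ratio was -0.12 among nuclei of 3000 to 8000 UMIs. The 5 highest nuclei of that class held 28.4% of its Egr3 UMIs in Control, with 7 in the highest, and 18.5% in MIP. The neuroblast marker list in oligodendrocyte precursor-like nuclei stood at 693 CPM in MIP and 1002 in Control, and its part in the result was not tested.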

How the results depend on the processing

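No paired analysis was possible because each group has 1 library and the replicate numbers only name them; for the same reason no library could be left out. Of 46 member ratios past 1.5-fold, 38 kept their sign under every alternative run. The summed ratio of MIP over Control over all nuclei was -0.19; it was -0.011 under TMM scaling, -0.090 with at least 1000 genes per nucleus, -0.079 without clusters of low depth, -0.073 among nuclei of 3000 to 8000 UMIs and -0.27 without fibroblast-like nuclei. Of ratios whose interval excluded 0, at 3000 to 8000 UMIs the sign turned for Jun in neuroblasts (-0.25) and for Fos (-1.81), Junb (-0.81) and Nr4a1 (0.77) in excitatory neurons, and after thinning to 2000 UMIs for Jund in interneurons (0.22) and Junb in the Tshz1 and Foxp2 class (-0.39). Ratios whose interval included 0 turned as well, among them, after thinning, Fos in oligodendrocyte precursors (-1.26), Nr4a1 in astroglia (-0.15) and Junb in interneurons (-0.06), and, at 3000 to 8000 UMIs, Fosl2 in neuroblasts (0.73), Nr4a1 in the Tshz1 and Foxp2 class (0.73) and Egr1 over all nuclei (0.34). The 13 pairs higher became 8 after thinning and 5 at 2-fold; the 9 lower became 16 with classes from marker scores and 1 at 2-fold. Precursors over neurons had a summed ratio of 0.57 in MIP and 0.35 in Control, which was 0.17 and 0.029 under TMM scaling, 0.31 and 0.15 at 3000 to 8000 UMIs, 0.47 and 0.25 against spiny projection neurons only and 0.83 and 0.83 against interneurons only; in Control it was 0.43 after thinning and 0.47 against excitatory neurons only. In MIP the 3 members higher became 5 against interneurons only, and the 3 lower became 5 under TMM scaling, 0 against interneurons only and 1 at 2-fold. In Control the 3 higher became 1 at 3000 to 8000 UMIs, 6 against interneurons only and 1 at 2-fold, and the 4 lower became 2 against excitatory neurons only, 1 against interneurons only and 2 at 2-fold. Control ratios whose interval excluded 0 and that turned were Egr1 (-0.078 under TMM scaling, -0.0097 at 3000 to 8000 UMIs, -0.11 against spiny projection neurons only), Junb (0.44 against excitatory and 1.15 against interneurons only), Arc (0.00040 and 0.38 against the same), and, against interneurons only, Fosl2 (0.74) and Egr3 (1.26). Ratios whose interval included 0 turned against interneurons only for Fosb in Control (1.06) and for Fosb (0.88), Junb (0.73), Egr3 (1.60) and Arc (1.24) in MIP. The shares of nuclei with a member UMI, 27.3% and 29.1% of precursors and 19.6% and 21.5% of neurons in MIP and Control, were 40.7%, 51.8%, 58.2% and 72.1% without thinning, 13.6%, 15.2%, 10.4% and 12.3% after thinning to 1000 UMIs, and 5.27%, 5.40%, 3.17% and 3.90% for at least 2 UMIs. The cause was not tested. Depth limits Fos, Fosb and Arc most: of the 100 pairs of member and class, 73 reached 20 UMIs.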

Other observations

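Endothelial-like and mural-like nuclei, the cells of vessel walls, were too few for a comparison. Endothelial-like nuclei numbered 12 in MIP and 20 in Control, where Egr1 had 0 UMIs in MIP and 11 in Control and Jund had 6 and 15. Mural-like nuclei numbered 10 and 18, and the 10 members together had 9 UMIs in each library.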
